A study of Mus musculus with 18 samples.

Results

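Voltage-gated calcium channel subunits, 10 genes in all, were followed in the cortex of *Nova2-/-* and *Nova1-/-* mouse embryos: *Cacna1a*, *Cacna1b*, *Cacna1c*, *Cacna1d* and *Cacna1e*, which encode pore-forming α1 subunits, *Cacnb1*, *Cacnb2*, *Cacnb3* and *Cacnb4*, which encode β subunits, and *Cacna2d1*, which encodes an α2δ subunit. They were taken by gene symbol. All 10 were among the 23038 symbols of the deposited count table, all 10 passed the filter on low counts in each comparison, and 3 of them (*Cacna1b*, *Cacna1d*, *Cacna1e*) accounted for 4 of the 1991 alternative splicing events in the deposited splicing table. The RNA came from embryonic day 18.5 (E18.5) embryos of the CD1 strain background. *Nova2-/-* cortex was compared with cortex of wild-type littermates (3 mice each), and *Nova1-/-* cortex with cortex of a separate set of wild-type littermates (3 mice each). For splicing, midbrain and hindbrain of *Nova1-/-* embryos and wild-type littermates was compared as well (3 mice each). Both knockouts were homozygous for a constitutive null allele. In the *Nova2* null allele a cassette with *IRES-Cre* sits at the start of the coding sequence, so reads from the rest of the locus can remain. Below, the wild-type mice are called the wild-type mice of the *Nova2* litters (replicates 1 to 3) and of the *Nova1* litters (replicates 4 to 6).

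A voltage-gated calcium channel opens when the membrane is depolarized and lets calcium into the cell. Its α1 subunit forms the pore and senses voltage. The β subunit binds the α1 subunit from inside the cell and promotes its delivery to the membrane, and the α2δ subunit, a largely extracellular protein, raises the number of channels at the surface and at presynaptic sites. L-type α1 subunits (*Cacna1c*, *Cacna1d*) link electrical activity to gene expression, whereas P/Q-type and N-type subunits (*Cacna1a*, *Cacna1b*) trigger transmitter release and the R-type subunit (*Cacna1e*) contributes at synapses and dendrites. NOVA1 and NOVA2 are neuronal RNA-binding proteins that bind clusters of the motif YCAY, where Y is C or U, and act on the splicing of nearby exons.

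The 12 cortex libraries held 16518172 to 31362018 counts each. Markers of neurons fitted the labelled tissue: 11 of 12 were in the table, none was at 0 in any mouse, and their summed level was 3669 to 4445 CPM, counts scaled to library size. *Nova1* was at 0.0340 to 0.211 CPM in *Nova1-/-* cortex against 41.4 to 75.9 CPM in its wild-type littermates. *Nova2* was at 17.0 to 21.6 CPM in *Nova2-/-* cortex against 31.6 to 40.9 CPM, a log2 fold change of −0.87 (edgeR adjusted p = 0.0373) that left residual reads. One library stood apart in its effect on the calls: without wild-type replicate 3 of the *Nova2* litters, the number of genes called in *Nova2-/-* rose from 166 to 1433. Wild-type replicate 2 of the same litters had the fewest counts, 16518172, but the most genes with a count, 21791 against 18397 to 19396 in the other libraries. In the 2 sets of litters 7.48% to 11.7% and 18.6% to 20.0% of the deposited values, respectively, were not whole numbers. Where leaving out wild-type replicate 3 of the *Nova2* litters changed a call or moved a log2 fold change named here by over 1.5 times, both values are given.

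In wild-type cortex the 10 genes spanned a wide range of levels. Levels of different genes were compared as CPM per kilobase of merged exons, as a mean over the 6 wild-type mice. *Cacna2d1*, the α2δ subunit that gabapentin binds, was at 39.6 ± 1.17 (SD, n = 6) and *Cacnb3*, a β subunit abundant in forebrain, at 38.3 ± 4.76. The first was higher in 4 of 6 mice and the ranges of both genes overlapped, so they were not separated. Among the pore-forming genes *Cacna1e* was at 24.2 ± 4.12, *Cacna1b* at 20.7 ± 6.81 and *Cacna1c* at 17.4 ± 3.07, with ranges that overlapped from neighbour to neighbour. *Cacna1b* exceeded *Cacna1c* in only 2 of 6 mice although its mean was higher. *Cacna1d* was at 10.2 ± 1.91 and was below *Cacna1c* in 6 of 6 mice, without overlap of their ranges.

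Lower in the order, *Cacnb4* (9.84 ± 0.521 CPM per kb) and *Cacnb1* (8.13 ± 1.51) overlapped each other, and *Cacnb4* overlapped *Cacna1d*. *Cacna1a*, the P/Q-type pore that prevails at many mature central synapses, was at 3.95 ± 0.532 CPM per kb, below *Cacnb1* in 6 of 6 mice. *Cacnb2* was lowest at 2.21 ± 0.273, again with no overlap with its neighbour. With the longest transcript in place of merged exons, which shortens *Cacnb2* from 9.22 to 3.94 kb and *Cacna1a* from 11.4 to 7.93 kb, 8 of 10 genes kept their place and *Cacnb1* and *Cacna1d* exchanged theirs. The separation of the lowest pair depended on that choice: per longest transcript *Cacnb2* was at 4.43 to 6.25 and *Cacna1a* at 4.73 to 6.40 CPM per kb, which overlap.

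**Figure D1:**
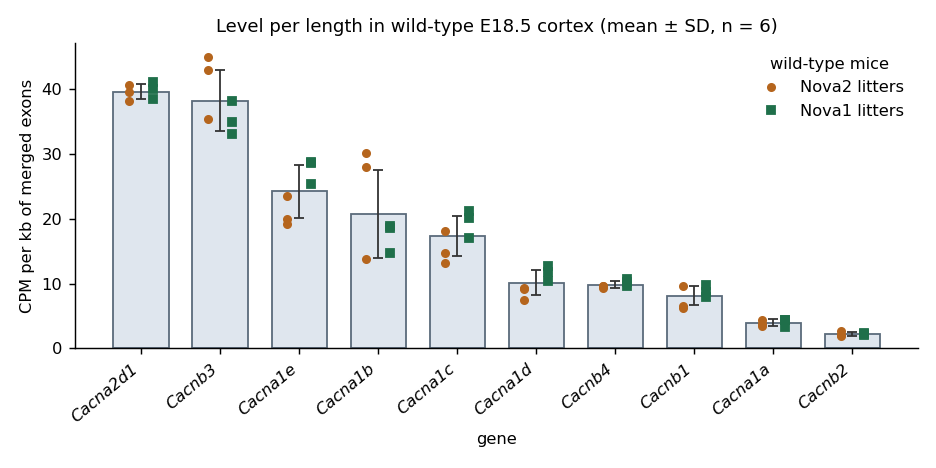
The y axis gives CPM per kilobase of merged exons in wild-type E18.5 cortex for each gene on the x axis; bars are means and error bars SDs over 6 mice, circles are mice of the *Nova2* litters and squares mice of the *Nova1* litters. *Cacna2d1* and *Cacnb3* stand highest at means of 39.6 and 38.3, *Cacnb2* is lowest at 2.21, and the circles of *Cacna1b* spread from 13.9 to 30.2.

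Within each class of subunit the composition could be read as each gene's share of the summed CPM per kb. Of the summed level of the 10 α1 genes measured (the 5 members with *Cacna1f*, *Cacna1g*, *Cacna1h*, *Cacna1i* and *Cacna1s*), *Cacna1e* took 27.9% ± 1.35 (SD, n = 3), *Cacna1b* 17.5% ± 0.378 and *Cacna1a* 4.05% ± 0.228 in wild-type mice of the *Nova1* litters. *Cacna1c* stood between the first 2 there, at 19.6% ± 0.322. In wild-type mice of the *Nova2* litters the mean of *Cacna1b*, 26.2% ± 8.92, was above that of *Cacna1e*, 23.1% ± 3.49. Their ranges overlapped (15.9% to 31.4% and 20.1% to 26.9%), so the 2 were not separated. *Cacna1c* was at 16.95% ± 3.27 and *Cacna1a* at 4.27% ± 0.694. Among the 4 β genes *Cacnb3* took 62.5% ± 2.09 in wild-type mice of the *Nova1* litters and 68.0% ± 5.14 in those of the *Nova2* litters. These shares are of RNA in bulk tissue, where fewer cells of a type and less RNA per cell cannot be told apart.

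The splicing table gave the change in inclusion of an alternative exon, *Δ*I, as 1 pooled value per event and comparison, computed by the authors as wild-type minus knockout. A value above 0 therefore means less inclusion in the knockout. The table lists events with a *Δ*I of at least 0.1 in size in *Nova2-/-* cortex (the smallest listed is 0.1001). For its 1991 NOVA2 target events the paper also required an FDR below 0.1. It further required YCAY inside reproducible clusters of NOVA binding, mapped by HITS-CLIP, on the exon or a neighbouring intron. Values in *Nova2-/-* are thus part of what put an event in the table and are given as a description. Values in the *Nova1-/-* comparisons were not used to choose events. No counts or values per mouse came with them, so depth and the spread between mice are unknown, and no test was made. All 4 channel events were cassette exons, and the other 7 genes had no event in the table. A splicing change in these genes that missed any of the criteria would not be listed.

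*Cacna1b*, the N-type pore gene (ENSMUSG00000004113, chr2:24459407-24618672, minus strand; mm9 throughout), held an event between flanking exons at chr2:24509904-24512917. The annotation places 1 coding exon of 12 bases in it, at chr2:24512231-24512242. Alternative exons in extracellular linkers of the N-type channel are known, some of which tune its gating. Whether this 12-base exon has such an effect was not tested. The length keeps the reading frame, as it did for 76.5% of the 196 cassette exons of the table that the annotation resolves to 1 exon, and 5 of these 196 exons had 12 bases or fewer against a median of 81 bases. The exon is shown because its inclusion is what the event measures, in lower case with no base marked.
*Cacna1b*, alternative exon, chr2:24512231-24512242: gagcttcatggg

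Between its flanking exons *Cacna1b* held 17.1 YCAY per kb (Y is C or T in DNA letters; transcribed strand only, overlapping matches counted), and *Cacna1e* and the second *Cacna1d* event held 16.9 and 16.7, against a median of 17.3 over 476 spans with annotated flanks. At least as high a density was found in 55.5% of these spans for *Cacna1b*, 58.8% for *Cacna1e* and 62.2% for *Cacna1d*. The spans all come from a table chosen for change in *Nova2-/-* and, by the paper's criteria, for YCAY inside NOVA binding clusters. These shares therefore describe that table and not introns in general. They cannot show whether the channel spans hold many or few motifs.

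*Δ*I of the *Cacna1b* exon was 0.442 in *Nova2-/-* cortex, less inclusion in the knockout, a size reached by 12.5% of the listed events. In *Nova1-/-* cortex it was −0.158, more inclusion in that knockout, and in *Nova1-/-* midbrain and hindbrain 0.0868. The sign in *Nova1-/-* cortex was thus opposite to that in *Nova2-/-* cortex, and only 2.72% of events had a value as large in size in *Nova1-/-* cortex.

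*Cacna1d*, an L-type pore gene (ENSMUSG00000015968, chr14:30853135-31304342, minus strand), held 2 events that met at 1 exon of 104 bases, chr14:30984482-30984585, which all 3 annotated transcripts contain. It lies inside the span of the first event, chr14:30955734-30985245, and is the downstream flanking exon of the second, chr14:30984482-30991927. The upstream limit of the first event, base 30985245, is the edge of the sequence described next, where the annotation has no exon. Pairs of mutually exclusive exons of like sequence in a pore-lining segment are known in L-type channel genes, so the interval upstream of the 104-base exon was searched for its best ungapped match. Of 7042 positions the best began exactly at that base: chr14:30985142-30985245 matched at 82 of 104 bases (78.8%), against 46 bases at the next best position, and no annotated exon overlapped it. The match is preceded by ag and followed by gt, the usual intron ends, as is the annotated exon. The sequences are shown with the bases that differ in capitals.
*Cacna1d*, annotated exon, chr14:30984482-30984585: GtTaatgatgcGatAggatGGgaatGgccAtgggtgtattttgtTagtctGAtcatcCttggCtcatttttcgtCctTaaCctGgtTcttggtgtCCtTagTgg
*Cacna1d*, unannotated match, chr14:30985142-30985245: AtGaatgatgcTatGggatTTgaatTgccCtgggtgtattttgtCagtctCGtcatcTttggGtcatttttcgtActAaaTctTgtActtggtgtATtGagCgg

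The first *Cacna1d* event, whose span ends at the start of the unannotated match, had a *Δ*I of −0.279 in *Nova2-/-* cortex, more inclusion in the knockout. It was 0.0265 in *Nova1-/-* cortex and 0.0396 in *Nova1-/-* midbrain and hindbrain, sizes that 58.3% and 48.6% of events reached. The second event, which skips or includes sequence between the 104-base exon and an upstream exon of 197 bases, was at the edge of the table with 0.102 in *Nova2-/-* cortex. Its value in *Nova1-/-* cortex, 0.104, had the same sign and nearly the same size, and it was 0.00241 in midbrain and hindbrain. The table does not name the alternative exon within either span, although the 104-base exon is the only annotated exon inside the first. The events share bases, so they are not independent observations.

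*Cacna1e*, the R-type pore gene (ENSMUSG00000004110, chr1:156239649-156573049, minus strand), had the largest *Δ*I of the channel genes, −0.678 in *Nova2-/-* cortex, more inclusion in the knockout. Only 1.46% of listed events were at least as large in size. The event lies between exons of 112 and 181 bases at chr1:156250808-156254953, with 3853 bases between them. The annotation gives *Cacna1e* 1 transcript and no exon there, so the sequence of the alternative exon could not be read. In *Nova1-/-* cortex *Δ*I was 0.133, opposite in sign to *Nova2-/-* and reached in size by 5.44% of events, and in midbrain and hindbrain it was 0.0371.

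Over the table, 11.1% of 1984 events had a *Δ*I of at least 0.1 in size in *Nova1-/-* cortex, and 3 of the 4 channel events did. In *Nova1-/-* midbrain and hindbrain it was 15.9% of 1991 events and 0 of the 4. At a limit of 0.2 they were 0 of 4 channel events and 1.01% of all events in *Nova1-/-* cortex. Both the *Cacna1b* and the *Cacna1e* event had opposite signs in the cortex of the 2 knockouts, which was not tested, since each is a single pooled value. The first *Cacna1d* event also differed in sign (−0.279 in *Nova2-/-* and 0.0265 in *Nova1-/-* cortex), and the second did not. How many events of the whole table had opposite signs was not counted. Opposite signs therefore cannot be read as a trait of the channel events.

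**Figure D2:**
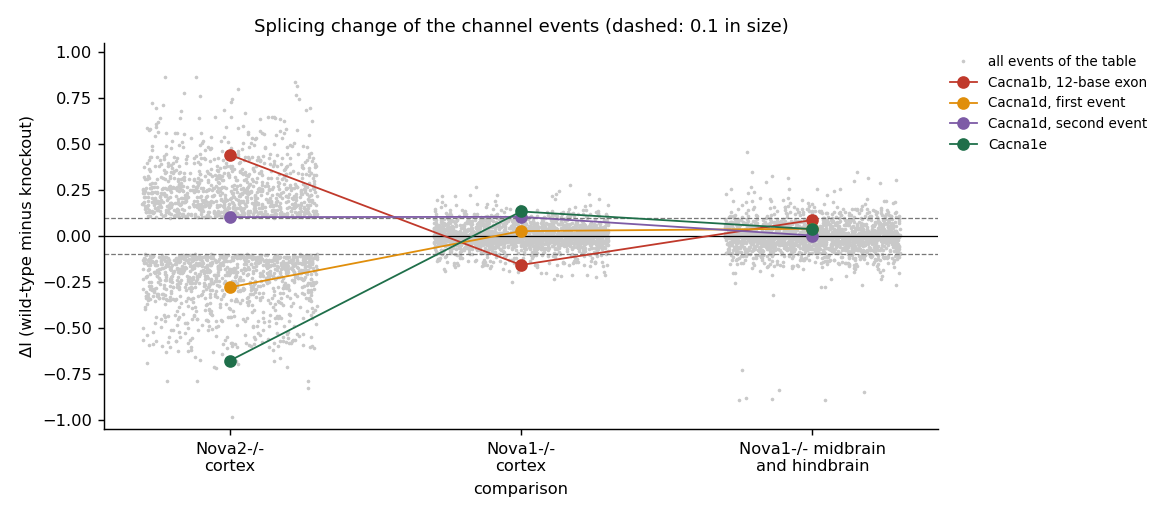
The y axis gives *Δ*I, wild-type minus knockout, in the 3 comparisons on the x axis; grey points are all events of the table, coloured points the 4 channel events, with a line joining the values of 1 event, and dashed lines mark 0.1 in size. *Cacna1b* goes from 0.442 in *Nova2-/-* cortex to −0.158 in *Nova1-/-* cortex and *Cacna1e* from −0.678 to 0.133, and the empty band around 0 in *Nova2-/-* is the limit used to list events.

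RNA abundance was compared next, to ask whether the channel genes changed in amount in either knockout. In *Nova2-/-* cortex none of the 10 was called: 0 of 10 genes had an adjusted p below 0.05 in edgeR (quasi-likelihood, adjusted by Benjamini and Hochberg over all genes), 0 of 10 had an unadjusted p below 0.05, and DESeq2 also called 0. Over all 15691 genes tested edgeR called 1.06%, 3005 genes had an unadjusted p below 0.05, and DESeq2 called 846. Log2 fold changes ran from −0.39 (*Cacna1b*) to 0.20 (*Cacna1d*), with a median of 0.07 against 0.01 over all genes, and 8 of 10 were above 0. For 9 of 10 genes the 95% interval lay within a 1.5-fold change in either direction, as it did for 62.0% of all genes. *Cacna1b* was the exception.

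*Cacna1b* was at 278, 300 and 138 CPM in the wild-type littermates and at 232, 151 and 156 CPM in *Nova2-/-* mice. Wild-type replicates 1 and 2 and knockout replicate 1 were high, the other mice low, and the groups overlapped. The log2 fold change was −0.39 ± 0.28 (SE), with a 95% interval from −1.02 to 0.24 (edgeR adjusted p = 0.482). The ratio of the highest to the lowest wild-type mouse was 2.17, which 1.53% of 10332 genes with a mean of at least 10 CPM reached in that group, and in *Nova2-/-* it was 1.54, reached by 1.69%. Without wild-type replicate 3, the library that stands apart, *Cacna1b* was called, at −0.67 (edgeR adjusted p = 0.0386). Its share of the summed α1 level was 15.9% to 31.4% in the wild-type littermates and 16.5% to 24.9% in *Nova2-/-*, again overlapping.

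*Cacna1d* was at 69.6, 87.3 and 86.4 CPM in wild-type and 92.1, 90.9 and 93.5 CPM in *Nova2-/-* mice. Every knockout mouse was above every wild-type mouse, the only gene of the 10 without overlap, where 26.4% of all genes tested had groups that did not overlap. The change of 0.20 ± 0.10 (SE) did not pass the test (edgeR adjusted p = 0.320). *Cacna1e* was at 254, 245 and 298 CPM against 281, 263 and 324 CPM (log2 fold change 0.14 ± 0.10, and 0.23 without wild-type replicate 3) and *Cacna1c* at 117, 129 and 159 against 140, 145 and 165 CPM (0.16 ± 0.12, and 0.30 without that mouse), both overlapping and neither called. *Cacna1a* differed least among the pore-forming genes, at 38.8, 43.0 and 50.4 CPM against 41.4, 44.6 and 47.6 CPM (0.03 ± 0.12, and 0.14 without that mouse).

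The values of the β genes overlapped between the groups in *Nova2-/-* cortex. *Cacnb3* was at 140, 134 and 111 CPM in wild-type and 125, 134 and 131 CPM in knockout mice, a log2 fold change of 0.03 with a 95% interval from −0.18 to 0.24. *Cacnb4* was at 86.2, 85.8 and 83.1 CPM against 98.2, 93.9 and 83.4 CPM (0.12, interval −0.05 to 0.30). *Cacnb1* was at 29.4, 28.6 and 43.9 CPM against 28.8, 30.6 and 33.6 CPM, and only wild-type replicate 3 lay outside a narrow band. Without that mouse its change turned from −0.12 to 0.11, and that of *Cacnb3* from 0.03 to −0.06. *Cacnb2* was at 19.1, 17.5 and 24.6 CPM against 20.8, 17.4 and 23.1 CPM (0.01, interval −0.36 to 0.38, and 0.18 without that mouse).

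*Cacna2d1*, whose fold change had the smallest SE of the 10, was at 332, 320 and 340 CPM in wild-type and 365, 355 and 338 CPM in *Nova2-/-* mice (log2 fold change 0.10 ± 0.06, interval −0.04 to 0.24). Its relative *Cacna2d3*, another α2δ gene (chr14:29718133-30535050) from the list of other subunits, fell: it was at 148, 145 and 121 CPM in wild-type and 77.9, 88.1 and 74.8 CPM in *Nova2-/-* mice, with no overlap. Its log2 fold change was −0.77 ± 0.10 (SE; edgeR adjusted p = 0.0221), or 58.7% of the wild-type level, lower in 3 of 3 knockout mice. In *Nova1-/-* cortex *Cacna2d3* was at 148, 128 and 126 CPM against 151, 147 and 154 CPM (−0.17 ± 0.07, adjusted p = 0.618). The difference between the knockouts was itself past the threshold (−0.61 ± 0.13, edgeR adjusted p = 0.0268). The fall in *Nova2-/-* was called in 6 of 6 other settings but in only 1 of 6 fits that left out a mouse, that without wild-type replicate 3 (adjusted p 0.000469, against up to 0.152), with values from −0.86 to −0.72.

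Beside the fall of *Cacna2d3*, the share of *Cacna2d1* in the summed level of the 4 α2δ genes was 58.9% ± 1.20 (SD, n = 3) in *Nova2-/-* mice and 47.1% ± 1.62 in their wild-type littermates, with ranges of 57.5% to 59.7% and 46.1% to 49.0%. The share of *Cacna2d3* was 30.4% ± 1.81 against 44.7% ± 4.43, and the summed level itself 71.4 ± 3.13 against 83.7 ± 1.58 CPM per kb. The ranges of each pair did not overlap. In *Nova1-/-* cortex *Cacna2d1* took 47.6% ± 2.12 against 45.1% ± 0.749, with overlap. Shares within a class depend on each other: a fall of *Cacna2d3* raises the share of *Cacna2d1* even where the level of *Cacna2d1* stays the same. The CPM of *Cacna2d1* itself overlapped between *Nova2-/-* mice and their wild-type littermates. These shares were described and not tested.

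**Figure D3:**
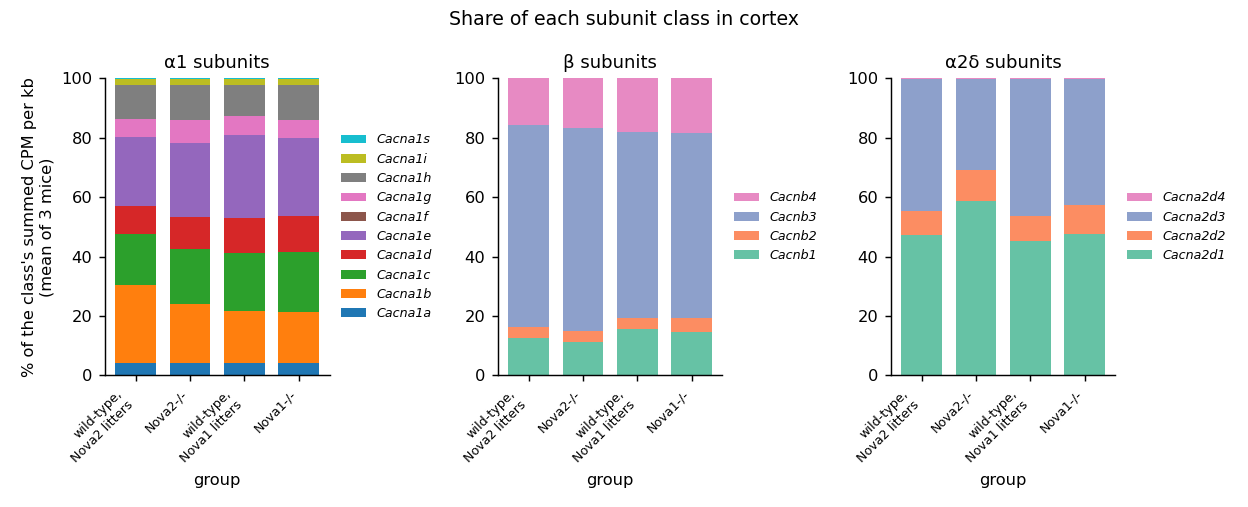
Stacked bars give the mean over 3 mice of each gene's percent share of the summed CPM per kb of its class (α1, β, α2δ; y axis) in the 4 groups of cortex samples on the x axis. The *Cacna2d1* segment is 58.9% in *Nova2-/-* against 45.1% to 47.6% in the other groups, whereas the bars of the β class look alike within each pair of littermate groups. Shares within a class depend on each other, so a fall of *Cacna2d3* raises that of *Cacna2d1*.

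Summed levels of some non-neuronal marker lists differed between *Nova2-/-* mice and their wild-type littermates. The summed level of 12 meningeal fibroblast markers was 238 to 596 CPM in the wild-type littermates and 912 to 1104 CPM in *Nova2-/-* mice, with 3 of 12 called higher, 0 lower and none at 0 in any mouse. Over all genes tested 1.06% were called. The 8 mural markers summed to 103 to 144 against 170 to 176 CPM (0 called) and the 7 endothelial markers to 242 to 269 against 305 to 326 CPM (1 called higher). The 6 microglial markers summed to 54.3 to 61.2 against 61.3 to 74.5 CPM (0 called), although only 2 of the 6 had a log2 fold change above 0. The sums of radial glia and progenitor markers (920 to 1244 against 1134 to 1207 CPM) and of oligodendrocyte lineage markers (168 to 224 against 211 to 230 CPM) overlapped. Wild-type mice of the *Nova1* litters had 823 to 1038 CPM of the meningeal, 156 to 166 of the mural and 77.2 to 78.6 of the microglial markers. Each of these sums, and that of the oligodendrocyte lineage (231 to 254 CPM), was above every wild-type mouse of the *Nova2* litters. The endothelial sum, 257 to 272 CPM, overlapped theirs. Neuronal markers overlapped between *Nova2-/-* mice, at 3669 to 4069 CPM, and their wild-type littermates, at 3817 to 4445 CPM. In *Nova1-/-* mice the mural and microglial sums were lower than in every wild-type littermate (138 to 149 against 156 to 166 CPM and 68.7 to 73.9 against 77.2 to 78.6 CPM), the neuronal sum was higher (4048 to 4148 against 3989 to 4028 CPM) with 5 of 11 markers above 0 in log2 fold change, and the meningeal sums overlapped. Groups without overlap were common among single genes: 26.4% in *Nova2-/-*, 13.5% in *Nova1-/-* and 27.4% between the wild-type sets. The part of these markers in the values above and below was not tested.

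**Figure D4:**
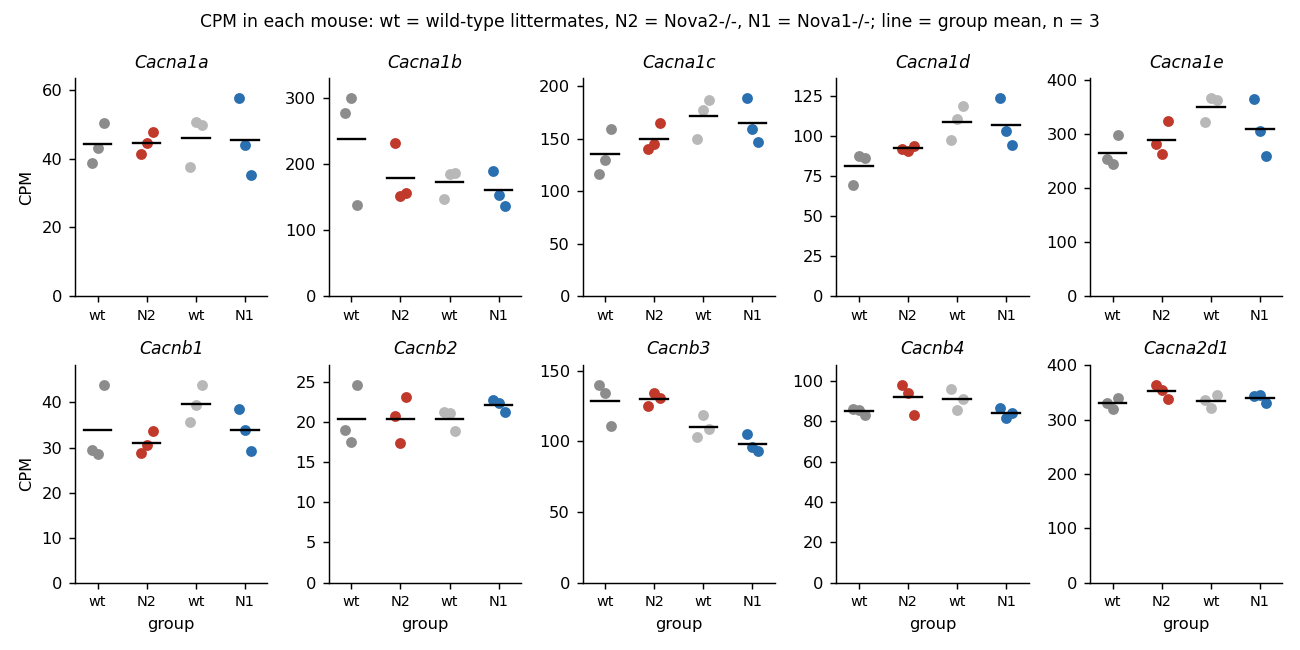
Each panel gives the CPM (y axis, from 0) of 1 gene in each of 12 cortex samples, by group on the x axis (wild-type littermates, *Nova2-/-*, wild-type littermates, *Nova1-/-*), with a line at the mean of 3 mice. *Cacna1b* spreads from 138 to 300 CPM among wild-type mice of the *Nova2* litters, *Cacna1d* is the gene whose *Nova2-/-* mice (90.9 to 93.5) all lie above their wild-type littermates, and *Cacna2d1* stays between 320 and 365 CPM throughout.

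In *Nova1-/-* cortex, too, 0 of 10 genes were called by edgeR and 0 by DESeq2, against 0.0126% of 15901 genes tested by edgeR and 34 genes by DESeq2. Of all genes tested by edgeR 1183 had an unadjusted p below 0.05, and of the 10 only *Cacnb3* did. It was at 103, 119 and 109 CPM in wild-type and 105, 96.3 and 92.9 CPM in *Nova1-/-* mice (log2 fold change −0.17 ± 0.07, edgeR adjusted p = 0.654), with overlap. Log2 fold changes ran from −0.23 (*Cacnb1*) to 0.12 (*Cacnb2*), 8 of 10 were below 0, and the median was −0.08 against 0.00 over all genes (0.0018). All 10 intervals lay within a 1.5-fold change, as did those of 78.6% of all genes. No gene of the 10 was without overlap between the groups, against 13.5% of all genes.

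*Cacna1b* was at 147, 185 and 187 CPM in these wild-type mice and 190, 154 and 137 CPM in *Nova1-/-* mice, a narrower spread than in the *Nova2* litters. *Cacna1e* was at 322, 366 and 363 CPM against 365, 306 and 260 CPM (−0.17 ± 0.10), *Cacnb1* at 35.7, 39.4 and 44.0 CPM against 38.5, 34.0 and 29.2 CPM (−0.23 ± 0.11), and *Cacnb4* at 95.8, 85.8 and 91.1 CPM against 86.6, 81.4 and 83.9 CPM (−0.12 ± 0.06). *Nova1-/-* replicate 1 was the highest and replicate 3 the lowest knockout mouse for all 5 pore-forming genes and for *Cacnb1*, *Cacnb2* and *Cacnb3*. *Cacna2d1* was at 336, 322 and 345 CPM against 344, 345 and 331 CPM.

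Whether the change in *Nova2-/-* differed from that in *Nova1-/-* was tested in 1 fit over all 12 cortex samples. Again 0 of 10 genes were called by edgeR and 0 by DESeq2, against 1.83% of 16210 genes by edgeR and 851 genes by DESeq2. Of all genes tested by edgeR 2950 had an unadjusted p below 0.05. Of the 10 only *Cacnb4* did, with a difference of 0.23 ± 0.10 on the log2 scale (edgeR adjusted p = 0.239). The largest difference was that of *Cacna1e*, 0.30 ± 0.16 (adjusted p = 0.355), and 8 of 10 differences were above 0. For 8 of 10 genes the interval lay within a 1.5-fold difference. *Cacna1b* had the widest, from −1.02 to 0.43.

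**Figure D5:**
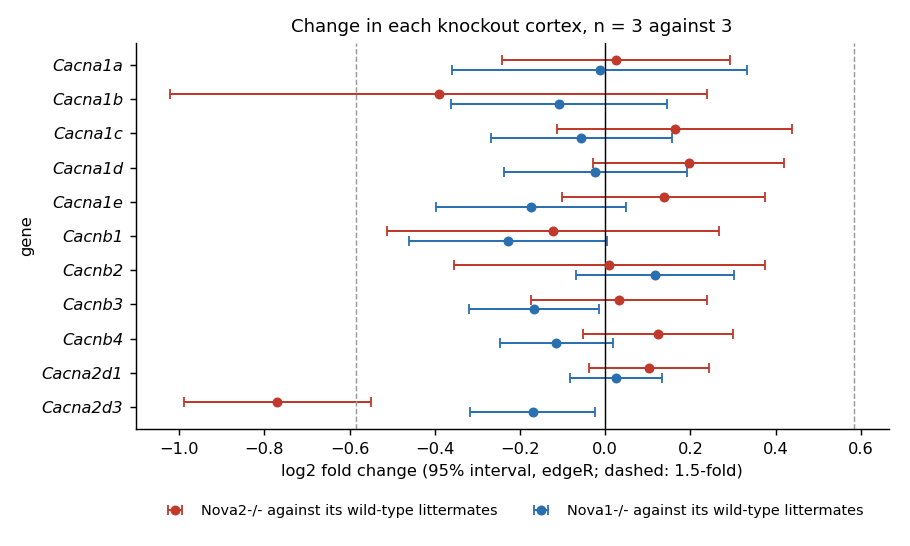
The x axis gives the log2 fold change of each gene on the y axis with its 95% interval from edgeR (n = 3 against 3), in red for *Nova2-/-* and in blue for *Nova1-/-*; dashed lines mark a 1.5-fold change. Every interval of the 10 channel genes covers 0 except that of *Cacnb3* in *Nova1-/-* (−0.32 to −0.01), the interval of *Cacna1b* in *Nova2-/-* is widest, and *Cacna2d3* in *Nova2-/-* lies at −0.77, to the left of 0.

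The 2 sets of wild-type mice share genotype, age and strain background, and comparing them shows how far the channel genes varied between sets of litters. One of 10 genes, *Cacna1e*, was called, against 3.03% of 15918 genes. It was at 322, 366 and 363 CPM in the *Nova1* litters and 254, 245 and 298 CPM in the *Nova2* litters (log2 fold change 0.41 ± 0.09, edgeR adjusted p = 0.0494), higher in 3 of 3 mice. The call rested near the threshold: it was kept in 4 of 5 other settings, lost with at least 10 counts required in every sample (the lowest and highest adjusted p over these settings were 0.0027 and 0.0504), and lost in 5 of 6 fits that left out a mouse. *Cacna1d* was also higher in every mouse of the *Nova1* litters, 97.3, 111 and 119 CPM (0.44 ± 0.11, adjusted p = 0.0661). These were 2 of 10 genes without overlap, against 27.4% of all genes. Without wild-type replicate 3 of the *Nova2* litters, 6 of 10 genes were called: *Cacna1c*, *Cacna1d*, *Cacna1e* and *Cacnb1* higher in the *Nova1* litters (0.50, 0.49, 0.51 and 0.47) and *Cacna1b* and *Cacnb3* lower (−0.72 and −0.30), with 3561 genes called over the table. Set of litters and any difference in handling or date cannot be told apart.

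Lists of genes that work with these channels were read from the same fits: 16 other subunits, 13 regulators of the channels, 21 presynaptic partners and 10 calcium-coupled channels, 60 genes of which 58 were tested. *Cacng6* and *Rem1* were too low to test. In *Nova2-/-* cortex 2 of 58 were called, against 1.06% of all genes tested. They were *Cacna2d3*, lower as above, and *Unc13a*, a priming factor of synaptic vesicles. *Unc13a* was higher at 264, 272 and 259 CPM against 190, 201 and 180 CPM (0.49 ± 0.06, edgeR adjusted p = 0.0229, higher in 3 of 3 mice). The *Unc13a* call was lost in 5 of 6 fits that left out a mouse. In *Nova1-/-* cortex 0 of 58 were called by edgeR and 0 by DESeq2, against 0.0126% of all genes by edgeR. An unadjusted p below 0.05 was found for 1 other subunit, 1 regulator, 1 presynaptic partner and 2 calcium-coupled channels, and for 1183 of all 15901 genes tested.

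Of the 15 other subunits tested, *Cacna2d3* was the 1 called in *Nova2-/-* (median log2 fold change −0.08). The extremes were *Cacng1* at −1.06 and *Cacna2d4* at 1.0, which did not pass (edgeR adjusted p = 0.324 and 0.223) and had low group means, 0.758 against 1.55 CPM for *Cacng1* and 1.13 against 0.576 CPM for *Cacna2d4*. Without wild-type replicate 3 of the *Nova2* litters *Cacng1* was at −0.16. In *Nova1-/-* the extremes were *Cacna1f* (−0.39) and *Cacna1s* (1.12), with group means of 0.532 against 0.690 CPM and 0.534 against 0.232 CPM, neither past the test. Of 12 regulators 0 were called in either knockout. *Calm2*, a calmodulin gene whose product is the calcium sensor of these channels, was at 951, 944 and 845 CPM in *Nova2-/-* against 1314, 1188 and 1184 CPM (−0.42 ± 0.08, edgeR adjusted p = 0.0531), and was lowest of the list, whereas *Stac2* was highest (0.17, and 0.04 without wild-type replicate 3). *Calm2* was called without wild-type replicate 3 (adjusted p = 0.0103) and in 5 of 6 other settings (adjusted p from 8.72e-05 to 0.0516). Its change in *Nova2-/-* differed from that in *Nova1-/-* (−0.50 ± 0.11, adjusted p = 0.0335). In *Nova1-/-* the regulators ran from *Stac* (−0.31) to *Gem* (0.20).

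Of 21 presynaptic partners *Unc13a* was the highest in *Nova2-/-* and *Vamp2*, a vesicle fusion protein, the lowest (−0.26, adjusted p = 0.364, and −0.11 without wild-type replicate 3). *Unc13b*, a relative of *Unc13a*, was at 175, 170 and 166 CPM against 136, 147 and 130 CPM (0.32 ± 0.07, edgeR adjusted p = 0.0690). It was called at 0.28 without wild-type replicate 3 (adjusted p = 0.0285) and in 2 of 6 other settings, DESeq2 and the fit over all 12 samples (adjusted p from 0.00725 to 0.0685 over the 6). It was also past the threshold in the difference between the knockouts (0.35 ± 0.08, adjusted p = 0.0440). *Unc13b* was at 166 to 176 CPM in wild-type mice of the *Nova1* litters and 163 to 170 CPM in *Nova1-/-* mice, near its level in *Nova2-/-* mice. Only the wild-type mice of the *Nova2* litters were lower. In *Nova1-/-* the partners ran from *Syt2* (−0.74, adjusted p = 0.522; group means 1.22 against 2.06 CPM) to *Rims2* (0.07). Among the 10 calcium-coupled channels, which release calcium from stores or open potassium channels in response to it, the extremes were *Itpr1* (−0.20) and *Itpr2* (0.73, adjusted p = 0.0839, and 0.95 with 0.00243 without wild-type replicate 3) in *Nova2-/-*, and *Kcnn1* (−0.10) and *Kcnn2* (0.23) in *Nova1-/-*. Between the sets of wild-type litters 4 of the 58 were called, against 3.03% of all genes tested. Of these 4, *Ryr2* (0.66), *Ryr3* (0.46) and *Unc13b* (0.34) were higher in the *Nova1* litters and *Cabp1* (−0.67) lower. *Itpr2*, not called there, was at 32.2 to 39.1 CPM in wild-type mice of the *Nova1* litters. It was at 17.9 to 28.5 CPM in those of the *Nova2* litters and at 33.2 to 39.7 CPM in *Nova2-/-* mice.

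The genes most like each channel gene over the 12 cortex samples were found by the root mean square difference of log2 CPM after centring each gene on its own mean. This is a description over samples that share genotype groups and libraries. For *Cacna1a* the nearest of the 16210 genes compared was *Cacna1i*, a T-type pore gene, at 0.0691, where the median gene was at 0.268. For *Cacna1c* and *Cacna1e* it was *Arhgef1* (0.0524 and 0.0786), and for *Cacna1d* *Grin2b*, an NMDA receptor subunit gene (0.0645). For *Cacnb2* it was *Slit2* (0.0600), for *Cacnb3* *Kctd7* (0.0411), for *Cacnb4* *Myo9a* (0.0480) and for *Cacna2d1* *Ctsb* (0.0414). The last pair of channel genes varied little themselves (own root mean square 0.0841 and 0.0512), so small distances there are to be read against a nearly flat gene. *Cacna1b* had no gene as close: its nearest, *Dcaf12l1*, was at 0.198, with its own spread at 0.367. The second nearest genes were *Spnb4* for *Cacna1a*, *Lekr1* for *Cacna1b*, *Prickle2* for *Cacna1c*, *Eif4g3* for *Cacna1d*, *Pacs1* for *Cacna1e*, *Pcdha2* for *Cacnb1*, *Plcb4* for *Cacnb2*, *Paqr4* for *Cacnb3*, *Sacm1l* for *Cacnb4* and *Ap1g1* for *Cacna2d1*.

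The remaining genes lie, in mm9, at chr8:86912339-87164145 (*Cacna1a*), chr6:118542314-119146249 (*Cacna1c*), chr11:97862822-97884348 (*Cacnb1*), chr2:14525933-14909535 (*Cacnb2*), chr15:98462651-98474961 (*Cacnb3*), chr2:52283845-52532350 (*Cacnb4*) and chr5:15440509-15880329 (*Cacna2d1*). The library kit does not mark strand, and exons of genes on the opposite strand overlap exons of *Cacna1a*, *Cacna1d*, *Cacnb1*, *Cacnb2* and *Cacnb4*, so reads of those pairs cannot be told apart. The *Cacnb2* counts, 290 to 736 per library, were the lowest of the 10, and those of *Cacna1e*, 4058 to 11401, reached highest.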

How the data were processed

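Reads were aligned by the authors to mm10 with OLego, and splicing coordinates were converted to mm9 before deposit. The labels name edgeR and mm9. The program and annotation behind the gene table are not given in the sources used here. The deposited gene values are expected counts, partly not whole, and were rounded. *Δ*I was deposited as a score per event and comparison. The authors' log2 fold change and p-value or FDR columns were not used. Members and lists were chosen with earlier results of these data known.

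edgeR 4.0.16 (R 4.3.3; TMM scaling, filterByExpr, quasi-likelihood F test) was fitted over all genes, and a gene was called at a Benjamini-Hochberg adjusted p below 0.05. CPM used TMM-scaled library sizes over all 12 cortex samples. DESeq2 1.42.0 was an alternative, with other filters, normalization, leaving out each mouse, and the length and limit choices named in the text. The code was tested on simulated data. Genes named outside the 10 were those called in any comparison (at most 5 a list) and the highest and lowest log2 fold change per list and knockout. The *Calm2* and *Unc13b* values outside these comparisons follow from their calls, and the *Itpr2* values of the wild-type sets were added after values were seen. The 104-base exon search was chosen after values were seen. Depth was 16518172 to 31362018 counts per mouse, and p-values cover the spread between 3 mice. Exons, lengths and sequence came from the mm9 genome and GENCODE annotation supplied: 87.8% of event starts matched an exon start after adding 1 to the 0-based coordinate, so coordinates are given 1-based. Protein sequences were not used here, and 1 gene and 1 intronic sequence with its motif counts are not reported here. In *Nova2* litters same-numbered mice correlated at 0.119, 0.0312 and 0.2, and different-numbered mice at −0.216 to 0.139. With 3 mice a group these values cannot show whether the numbers mark pairs. The main fit took no pairs, and a fit with the number as a block is given below.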

Additional observations from a re-analysis of the deposited data

Results flagged for a closer look

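No channel gene of the 10 met a criterion, and 3 genes of the other lists did, each by the test of the difference between the log2 change in *Nova2-/-* and that in *Nova1-/-*. Over all genes that test called 1.83%. The difference was −0.61 for *Cacna2d3* (edgeR adjusted p = 0.0268; called in 4 of 4 other settings and in 4 of 12 fits that left out a mouse). It was −0.50 for *Calm2* (adjusted p = 0.0335, 4 of 4 and 3 of 12) and 0.35 for *Unc13b* (adjusted p = 0.0440, 4 of 4 and 4 of 12). Between the 2 wild-type sets *Unc13b* differed as well (0.34 higher in the *Nova1* litters, edgeR adjusted p = 0.0397). The values of *Cacna2d3* and *Calm2* overlapped between those sets.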

How the results depend on the processing

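The 0 channel genes called in *Nova2-/-* became 1 only without wild-type replicate 3 (range over mice left out 0 to 1), and in *Nova1-/-* and in the difference between the knockouts 0 were called in every setting run. Between wild-type sets 1 channel gene was called, 0 to 6 with a mouse left out, 2 with DESeq2, with all 12 samples in 1 fit or with no filter, and 0 with at least 10 counts in every sample or with a log2 fold change of at least 1 required. Other list genes called in *Nova2-/-* went from 2 to 7 (DESeq2), 8 (all 12 samples), 0 (log2 fold change of at least 1) and 0 to 11 (a mouse left out); in the difference from 3 to 5 (DESeq2), 0 (log2 fold change) and 0 to 7; between wild-type sets from 4 to 13 (DESeq2), 11 (all 12 samples), 8 (no filter), 0 (log2 fold change) and 0 to 22. Genes called over the table in *Nova2-/-* went from 166 to 846 (DESeq2), 1334 (all 12 samples), 41 (log2 fold change) and 7 to 1433; in *Nova1-/-* from 2 to 34 (DESeq2) and 1 to 10; in the difference from 296 to 851, 113 and 113 to 1005; between wild-type sets from 483 to 1333, 1590 (all 12 samples), 103 and 3 to 3561. The causes were not tested.

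With the replicate number as a block in *Nova2-/-*, 220 genes, 0 channel genes and 3 other list genes were called. Same-numbered mice correlated at 0.119, 0.0312 and 0.2, and different-numbered mice at −0.216 to 0.139. Not every mouse correlated best with its own number, and whether the numbers mark pairs cannot be told.

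Of the level order, 8 genes kept their place with the longest transcript, 4 in the *Nova2* litters alone and 8 in the *Nova1* litters alone. Channel events past the limit were 0 of 4 at 0.2 in *Nova1-/-* cortex (1.01% of all events) and 1 of 4 at 0.05 in midbrain and hindbrain (41.4%). *Cacnb2* turned to −0.0035 in *Nova2-/-* and −0.0052 between wild-type sets with all 12 samples in 1 fit.

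Log2 values that changed sign when 1 mouse was left out ranged as follows, none of them called. In *Nova2-/-* they were *Cacna1a* −0.064 to 0.14, *Cacnb1* −0.23 to 0.11, *Cacnb2* −0.089 to 0.18, *Cacnb3* −0.062 to 0.10. In *Nova1-/-* they were *Cacna1a* −0.22 to 0.14, *Cacna1c* −0.16 to 0.023, *Cacna1d* −0.14 to 0.060, *Cacna1f* −0.66 to 0.17. In the difference they were *Cacna1a* −0.13 to 0.24, *Cacnb1* −0.0017 to 0.34, *Cacnb2* −0.20 to 0.055. Between wild-type sets they were *Cacna1a* −0.017 to 0.20, *Cacnb2* −0.092 to 0.17. No cause of these sign changes was tested.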
